A study of Homo sapiens with 6 samples.

Results

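The genes described here are the VEGF ligands VEGFA, VEGFB, VEGFC and PGF, their receptor tyrosine kinases FLT1 (VEGFR1), KDR (VEGFR2) and FLT4 (VEGFR3), and the neuropilin co-receptors NRP1 and NRP2, together 9 of the 19775 genes named on the arrays. A gene was measured through the probe sets that the platform's annotation assigns to its symbol alone, and the brightest of them, by the mean of the 6 arrays, stands for it. All 9 genes had at least 1 such probe set. The 9 genes were taken by family membership with earlier results of these data known, and the ligand VEGFD was not analysed here. VEGFC was moreover chosen by its log2 difference between the lines on these same arrays, so its values are described without a test. The 2 cell lines were SY5Y-TR1, 1 expanded TAE684-resistant subclone, and SH-SY5Y, the human neuroblastoma (NB) line from which it was selected with that ALK inhibitor, and both carry ALK F1174L. TAE684 at 1 μM was kept in the medium of SY5Y-TR1 cells, whereas SH-SY5Y cells grew without it, so the subclone and the presence of the drug cannot be told apart. Each line was hybridized to 3 Affymetrix U133 Plus 2.0 GeneChips. The methods and the sample titles call these biological replicates, whereas the submitters' design text counts each line as 1 sample with replicates. The p-values thus measure only the spread between these arrays, which may be technical.

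VEGF ligands are secreted dimers that act through cell-surface tyrosine kinases. VEGFA, the main driver of blood vessel growth and a target of hypoxia-inducible factors, binds FLT1 and KDR. VEGFB and PGF bind FLT1, whereas VEGFC, the growth factor of lymphatic vessels, is cleaved outside the cell and then binds FLT4 and, once fully processed, KDR. NRP1 and NRP2 lack a kinase, hold VEGF ligands on the surface and also serve as receptors for class III semaphorins, the guidance cues of growing axons and of migrating neural crest cells, from which NB arises.

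The values are on the log2 scale, as given by robust multi-array averaging (RMA), so that 1 unit is a 2-fold difference in signal and the level of 1 gene cannot be set against that of another. The arrays had median log2 signals of 5.56 to 5.59, and Pearson's r across probe sets was at least 0.997 within each line and 0.959 to 0.960 between the lines. A background level of 5.83 was taken from 40 genes of unrelated tissues, 90 percent of which lay under it. Of 15 measured markers of noradrenergic neuroblasts, 9 were above that level in SY5Y-TR1 cells and 14 in SH-SY5Y cells. In the same list 11 genes were lower, against 5.99% of all genes, and 4 did not pass. The lower genes included DLK1 (at least 69.2-fold, through 1 of 2 probe sets), TFAP2B (at least 52.6-fold) and RET (at least 33.2-fold). TH, the rate-limiting enzyme of catecholamine synthesis, lay under the background level in both lines. None of these markers was higher, against 5.36% of all genes (limma, with 0 higher at an unadjusted p under 0.05 with no fold limit, and 0 by the methods' t-test at the same limit). The part of these markers in the differences below was not tested. Folds given as at least a value are against the background level, because the lower line lay under it. Genes counted as higher or lower differed at least 2-fold and had an adjusted p (Benjamini-Hochberg, over all genes, from limma) under 0.05.

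SY5Y-TR1 cells carried more FLT1 and NRP2 RNA than SH-SY5Y cells, and VEGFC was bright in SY5Y-TR1 cells alone. VEGFA had the lower signal in SY5Y-TR1 cells without reaching 2-fold, whereas VEGFB, PGF, KDR, FLT4 and NRP1 differed by a log2 value of 0.22 or less in either direction. In such bulk RNA, fewer expressing cells and less RNA in each cell cannot be told apart. Besides VEGFC, 2 of the other 8 genes were higher (25%), against 5.36% of all genes. The other 6 did not pass and 0 were lower, against 5.99% of all genes, with 1 lower at an unadjusted p under 0.05 with no fold limit in limma and 1 lower by the methods' t-test at the same limit. With an adjusted p under 0.05 and no fold limit, 4 of the 8 passed, and so did 52.8% of all genes. The 3 arrays of SY5Y-TR1 all lay above those of SH-SY5Y for 3 of the 8 genes and all below for 2, against 32.6% and 27.2% of all genes, and 59.8% of all genes in either direction. The median log2 fold change of the 8 genes was 0.05, against 0.04 for all genes.

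**Figure D1:**
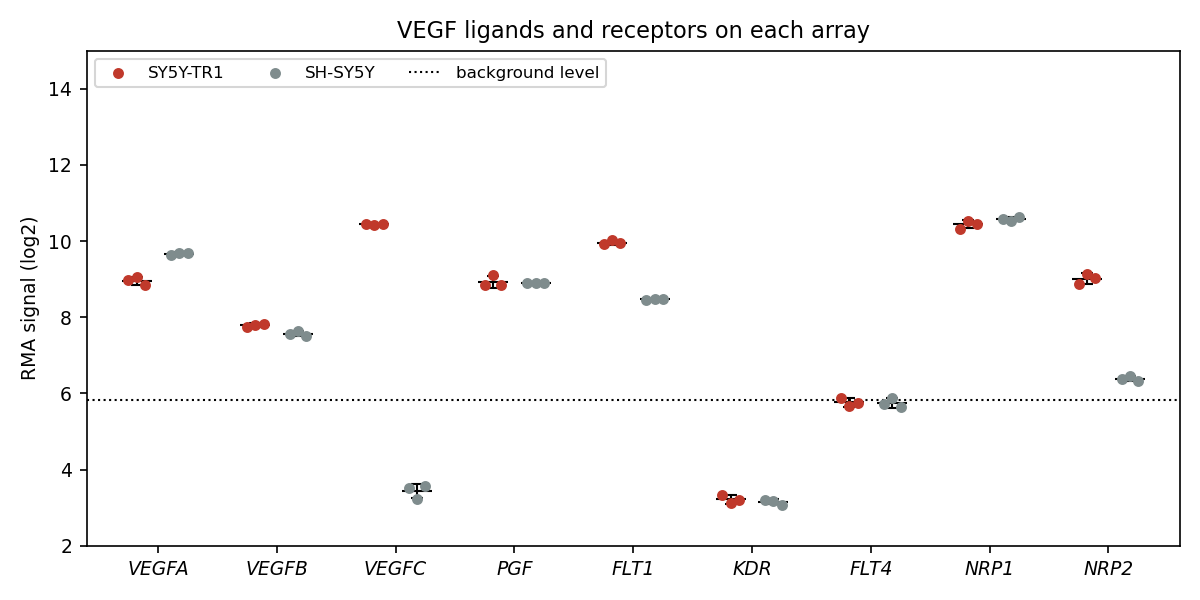
RMA signal (log2, y axis) of the brightest probe set of each of the 9 genes on every array. Points are the 3 SY5Y-TR1 arrays (red) and the 3 SH-SY5Y arrays (grey), with means and SDs as bars, and a dotted line marks background (5.83). VEGFC stands at 10.44 in SY5Y-TR1 and at 3.43 in SH-SY5Y, FLT1 and NRP2 are also apart, and KDR lies far under the dotted line on all arrays.

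Among the ligands, VEGFC gave log2 signals of 10.46, 10.42 and 10.44 on the SY5Y-TR1 arrays, against 3.51, 3.21 and 3.56 on the SH-SY5Y arrays. All 3 SH-SY5Y values lay under the background level, so VEGFC was at least 24.4-fold higher in SY5Y-TR1 cells, the ratio of their mean of 10.44 ± 0.02 (SD, n = 3) to that level. With the 95th percentile of the background genes (6.36) as the level, chosen after seeing the data, the bound was 16.9-fold. By log2 difference, 7.01 between the means, VEGFC ranked 8 among 19775 genes, a rank that is part of why it was named. It had a single probe set, so no other probe set on the array bears on this value.

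VEGFA gave log2 signals of 8.98, 9.05 and 8.83 on the SY5Y-TR1 arrays, against 9.64, 9.70 and 9.68 on the SH-SY5Y arrays. Every SY5Y-TR1 array thus read lower than every SH-SY5Y array. The log2 fold change was -0.72 (95% interval -0.87 to -0.57, adjusted p = 5.51e-05 from limma), which is a 1.65-fold lower signal and short of the 2-fold limit. The other 3 VEGFA probe sets were dimmer and had log2 fold changes of -0.16, -0.10 and -0.13, with arrays of the lines overlapping in each. The lines were thus apart on 210512_s_at, the brightest, and not distinguishable on 212171_x_at, 210513_s_at or 211527_x_at. On all arrays 211527_x_at lay under the background level, so a difference was not detectable there. Means of 5.97 in SY5Y-TR1 cells and 6.07 in SH-SY5Y cells put 210513_s_at close to that level.

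VEGFB, a ligand linked to lipid handling in heart and muscle, gave 7.74, 7.81 and 7.83 in SY5Y-TR1 cells, against 7.55, 7.64 and 7.52 in SH-SY5Y cells. The lines did not overlap, but the log2 fold change was 0.22 (95% interval 0.10 to 0.35, adjusted p = 0.00806 from limma), well under the 2-fold limit. PGF, placental growth factor, read 8.83, 9.11 and 8.84 in SY5Y-TR1 cells, against 8.89, 8.90 and 8.89 in SH-SY5Y cells. These arrays overlapped, and the difference of 0.04 had a 95% interval from -0.15 to 0.23. The second PGF probe set had a log2 fold change of 0.29 (95% interval 0.13 to 0.46) and did not pass either.

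Of the 3 receptor tyrosine kinases, FLT1 alone was called. FLT1, a high-affinity receptor that is also made as a soluble form able to trap ligand, gave 9.92, 10.02 and 9.94 on the SY5Y-TR1 arrays, against 8.45, 8.49 and 8.47 on the SH-SY5Y arrays. The gap between the lines was far wider than the spread within either, and FLT1 was 2.81-fold higher (1.49 ± 0.04 on the log2 scale, SE, with an adjusted p of 2.87e-07 from limma). Of its 6 probe sets, 4 passed as higher, with log2 fold changes from 1.20 to 1.50, against 3.79% of all probe sets. The other 2 FLT1 probe sets, 232809_s_at and 204406_at, read 6.26 and 4.50 in SY5Y-TR1 cells and 6.26 and 4.51 in SH-SY5Y cells, and did not differ beyond the spread of the arrays. On all arrays 204406_at lay under the background level, so a difference was not detectable there. The means of 232809_s_at stood close to the 95th percentile of the background genes (6.36). Which FLT1 transcripts each probe set detects was not analysed here, so the soluble and the membrane forms cannot be told apart. With the mean of all 6 probe sets FLT1 was not called (log2 fold change 0.93). None of the 33 probe sets of the 9 genes was lower, against 4.58% of all probe sets (the fit over all probe sets, by limma).

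KDR, the main signalling receptor of VEGFA on blood vessel endothelium, gave 3.34, 3.12 and 3.19 in SY5Y-TR1 cells, against 3.21, 3.16 and 3.08 in SH-SY5Y cells. All 6 arrays lay under the background level, so a difference was not detectable at this signal and no fold is given. FLT4, the receptor of VEGFC on lymphatic endothelium, read 5.88, 5.67 and 5.74 in SY5Y-TR1 cells, against 5.71, 5.88 and 5.65 in SH-SY5Y cells. Both means lay under the background level, with 1 array of each line just above it, and the difference of 0.01 had a 95% interval from -0.18 to 0.21. The other 2 FLT4 probe sets lay under that level on all arrays.

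The neuropilins differed from each other in how they compared between the lines. NRP2, which binds VEGFC and the semaphorins SEMA3F and SEMA3C, gave 8.87, 9.15 and 9.02 on the SY5Y-TR1 arrays, against 6.39, 6.44 and 6.32 on the SH-SY5Y arrays. The lines lay far apart, and NRP2 was 6.19-fold higher (2.63 ± 0.08 on the log2 scale, SE, with an adjusted p of 2.9e-07 from limma). The SH-SY5Y mean of 6.38 stood close to the 95th percentile of the background genes (6.36), so the fold rests on a dim baseline. With the mean of all 11 probe sets, the log2 fold change of NRP2 was 1.65. NRP1, a co-receptor of VEGFA and SEMA3A, was bright in both lines and gave 10.33, 10.53 and 10.46 in SY5Y-TR1 cells, against 10.57, 10.54 and 10.63 in SH-SY5Y cells. Although the highest SY5Y-TR1 array stood just below the lowest SH-SY5Y array, the log2 fold change was -0.14 (95% interval -0.29 to 0.01) and did not pass.

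NRP2 was the gene with the most probe sets, 11, and on every one of them each SY5Y-TR1 array read higher than each SH-SY5Y array, whereas arrays of the lines were apart, in either direction, on 50.2% of all probe sets. Of the 11, 6 passed as higher, and 4 of the other 5 lay under the background level on all arrays. The 4 brightest in SY5Y-TR1 cells, 225566_at, 229225_at, 222877_at and 214632_at, had log2 fold changes of 2.63, 3.07, 3.46 and 2.63. The dimmer 219367_s_at and 211844_s_at had 1.62 and 2.06. Of these 6, 225566_at alone had an SH-SY5Y mean above the background level, so the differences of the other 5 run from background. The remaining 5 ranged from 0.26 to 0.81. By contrast, none of the 4 NRP1 probe sets was called, with log2 fold changes from -0.24 to 0.07. Both ends of that range came from 1561365_at and 210615_at, which lay under the background level on all arrays. The brighter 212298_at and 210510_s_at had -0.14 and -0.05.

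**Figure D2:**
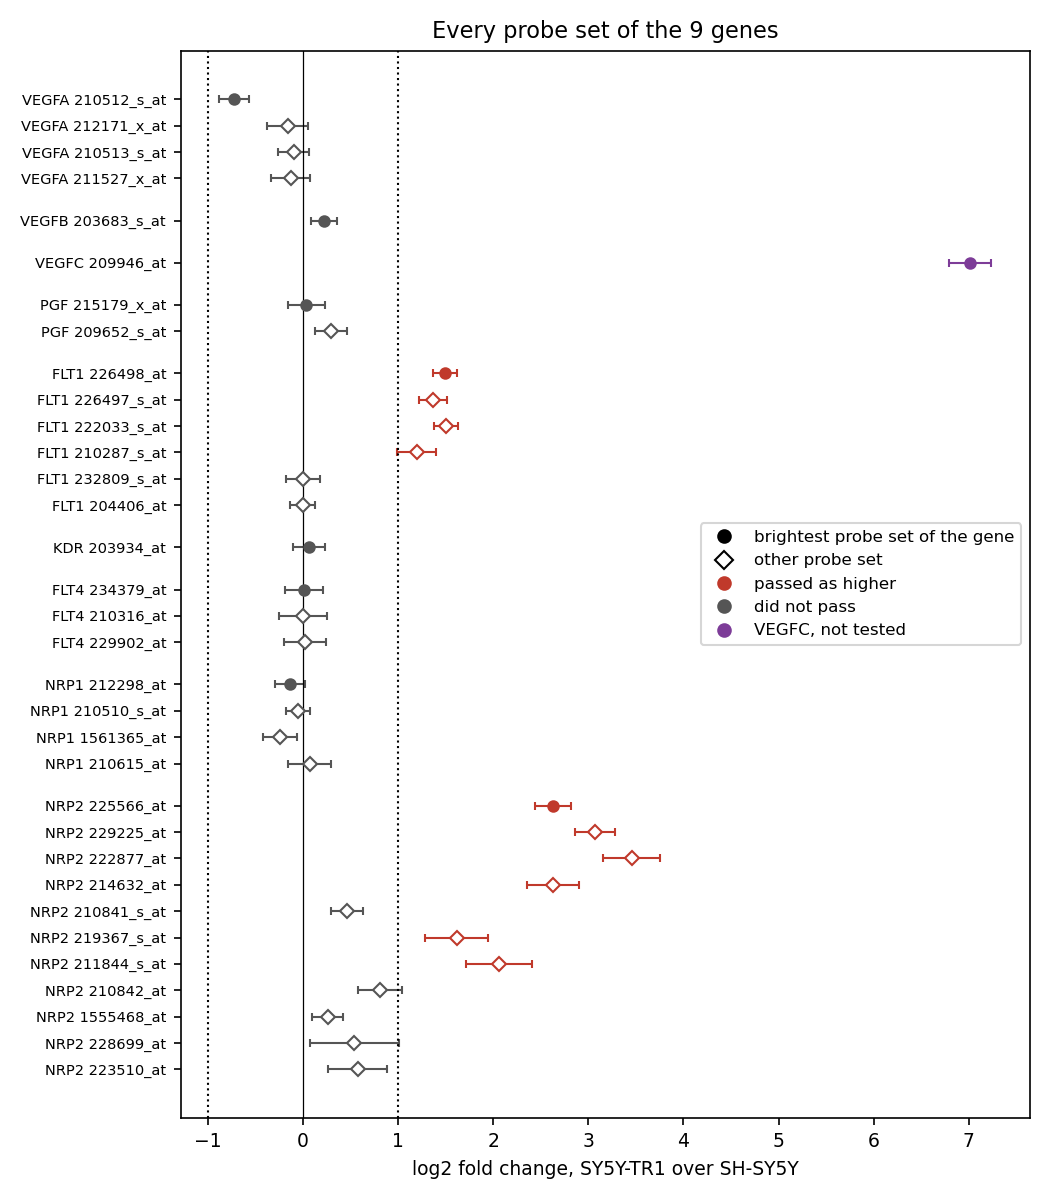
Difference in log2 signal (SY5Y-TR1 minus SH-SY5Y, x axis) of every probe set of the 9 genes, with its 95% interval from the fit over all probe sets (3 arrays in each line). Filled circles mark each gene's brightest probe set, open diamonds its others, red marks those called higher, purple VEGFC, which was not tested, and dotted lines 2-fold. The 11 NRP2 probe sets spread from 0.26 to 3.46, 4 of the 6 FLT1 probe sets cluster between 1.20 and 1.50, and those of NRP1, KDR and FLT4 lie near 0.

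The promoters of VEGFC, FLT1 and NRP2 are printed because these were the genes with the large positive differences. They are RefSeq sequences of GRCh38.p14, 250 bases before to 50 bases after the start, at chr4:176792873-176793172 (minus strand), chr13:28495079-28495378 (minus strand) and chr2:205682251-205682550 (plus strand). Capitals mark matches, on either strand, to the GC box GGGCGG, the E-box CANNTG or the cyclic AMP response element TGACGTCA.
VEGFC: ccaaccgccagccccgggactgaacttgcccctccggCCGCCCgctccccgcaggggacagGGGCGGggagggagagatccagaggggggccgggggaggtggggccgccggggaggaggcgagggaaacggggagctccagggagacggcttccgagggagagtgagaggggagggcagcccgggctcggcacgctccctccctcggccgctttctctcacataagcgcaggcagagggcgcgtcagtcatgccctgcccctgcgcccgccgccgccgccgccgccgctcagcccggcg
FLT1: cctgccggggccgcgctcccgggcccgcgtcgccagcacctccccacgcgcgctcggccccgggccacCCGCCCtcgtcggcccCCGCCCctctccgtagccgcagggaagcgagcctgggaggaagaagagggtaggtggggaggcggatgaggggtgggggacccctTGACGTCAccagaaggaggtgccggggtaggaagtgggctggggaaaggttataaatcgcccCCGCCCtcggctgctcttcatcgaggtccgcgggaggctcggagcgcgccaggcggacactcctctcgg
NRP2: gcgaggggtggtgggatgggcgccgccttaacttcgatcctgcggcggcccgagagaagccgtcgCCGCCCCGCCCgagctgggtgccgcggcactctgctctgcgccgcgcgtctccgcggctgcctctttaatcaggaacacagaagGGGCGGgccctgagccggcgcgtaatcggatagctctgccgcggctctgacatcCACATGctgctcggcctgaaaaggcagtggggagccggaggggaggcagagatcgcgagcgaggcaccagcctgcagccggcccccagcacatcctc
GC boxes stood in all 3 windows, 2 in VEGFC, 3 in FLT1 and 3 in NRP2, where 2 of them overlap by a base, and in 45.0% of 35116 RefSeq promoters of the same length. The response element TGACGTCA, found in 1.85% of all promoters, stood once in FLT1, and CANNTG, found in 68.7%, once in NRP2. Neither the hypoxia response core ACGTG (21.4% of promoters) nor the AP-1 site TGANTCA (7.71%) was present in the 3 windows. Matches are letters in a window and were not tested for binding, and PGF, VEGFB and KDR, which did not pass, also held GC boxes. The GC content of the 3 windows was 70.0 to 76.3%, against a median of 58.7% over all promoters. VEGFA, FLT4 and NRP1 had no entry in the sequence table used.

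The secreted VEGFC precursor needs proteases to become active. Of 11 genes on a list of its processing and activation, 1 was higher and 1 lower, against 5.36% and 5.99% of all genes. The other 9 did not pass, and the median log2 fold change was 0.16. ADAMTS3, the protease that cleaves VEGFC together with the cofactor CCBE1, gave 7.56, 7.72 and 7.77 in SY5Y-TR1 cells, against 9.67, 9.64 and 9.69 in SH-SY5Y cells. It was 3.95-fold lower (-1.98 ± 0.06 on the log2 scale, SE). PLAT, tissue plasminogen activator, which makes plasmin, gave 9.78 on each SY5Y-TR1 array, against 7.69, 7.71 and 7.70 on the SH-SY5Y arrays, and was 4.23-fold higher (2.08 ± 0.04 on the log2 scale, SE). CCBE1 lay under the background level in both lines, with means of 4.10 in SY5Y-TR1 cells and 4.19 in SH-SY5Y cells. So did PLG, which encodes plasminogen, with means of 5.35 in SY5Y-TR1 cells and 5.29 in SH-SY5Y cells.

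Of the semaphorins, plexins and neuropilin partners, 15 were measured. Among them 4 passed as higher and 3 as lower, against 5.36% and 5.99% of all genes. The other 8 did not pass, and the median log2 fold change was -0.15. SEMA3F, a repulsive ligand of NRP2, gave 10.82, 10.91 and 10.89 in SY5Y-TR1 cells, against 8.15, 8.24 and 8.15 in SH-SY5Y cells, so that both this ligand and its receptor read higher in SY5Y-TR1 cells on all arrays. It was 6.46-fold higher (2.69 ± 0.05 on the log2 scale, SE), through 2 of 3 probe sets. The semaphorin receptors PLXND1 and PLXNC1 were 2.73-fold and 2.63-fold higher, through 2 of 3 and 1 of 4 probe sets. PLXNA4, a plexin of neurons that pairs with neuropilins, was at least 7.81-fold lower, SEMA3E, a ligand of PLXND1, at least 1.34-fold lower, and L1CAM, an axonal adhesion molecule that binds NRP1, 2.47-fold lower. Opposite directions thus occurred within both the ligands and the plexins.

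VEGFA transcription is driven by hypoxia-inducible factors, and 27 of their genes, regulators and targets were measured. Of these, 7 passed as higher and 2 as lower, against 5.36% and 5.99% of all genes, and 18 did not pass. The median log2 fold change was 0.06, against 0.04 for all genes. EPAS1 (HIF2A), the oxygen-labile subunit typical of endothelium and of sympathetic tissue, gave 12.94, 12.96 and 12.98 in SY5Y-TR1 cells, against 9.34, 9.25 and 9.40 in SH-SY5Y cells. It was 12.4-fold higher through 1 of 3 probe sets (3.63 ± 0.05 on the log2 scale, SE). The hypoxia-induced carbonic anhydrase CA12 was 4.75-fold higher through 5 of 7 probe sets and the glucose transporter SLC2A3 at least 1.53-fold higher. EGLN3, a prolyl hydroxylase that is itself a hypoxia target, was 3.69-fold lower, and ARNT2, a neuronal partner of the hypoxia-inducible factors, 2.08-fold lower. HIF1A was close to equal, with means of 13.03 in SY5Y-TR1 cells and 13.10 in SH-SY5Y cells.

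Downstream of the receptors, 5 of 28 measured signalling genes passed as higher, against 5.36% of all genes. The median log2 fold change was 0.10, and 23 did not pass. None was lower, against 5.99% of all genes (limma, with 6 lower at an unadjusted p under 0.05 with no fold limit, and 7 by the methods' t-test at the same limit). RCAN1, a calcineurin regulator induced by VEGFA in endothelium, was 2.88-fold higher through 2 of 3 probe sets. PTPRB, the endothelial phosphatase that restrains KDR and TIE2, was 2.80-fold higher through 1 of 4 probe sets, and PXN, the focal adhesion protein paxillin, 2.67-fold higher through 1 of 2. PTPRB stood near the background level in SH-SY5Y cells, at a mean of 5.92.

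Other angiogenic ligands and receptors moved in both directions, with 4 of 18 higher and 3 lower, against 5.36% and 5.99% of all genes. The other 11 did not pass, and the median log2 fold change was 0.10. CXCL8 (interleukin 8), a chemokine that attracts neutrophils and stimulates endothelium, gave 8.59, 8.86 and 8.76 in SY5Y-TR1 cells, against 4.39, 4.44 and 4.66 in SH-SY5Y cells, all 3 of the SH-SY5Y values being under the background level. It was at least 7.48-fold higher. CXCL12, the ligand of CXCR4, was 2.92-fold higher through 1 of 2 probe sets, and the growth factor FGF2 2.82-fold higher through 2 of 2. HGF was at least 16.6-fold lower, with 4 of 5 probe sets called, the ephrin EFNB2, which marks arterial endothelium, 2.51-fold lower, and ANGPT1, the agonist of TIE2, 2.15-fold lower through 1 of 3.

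The list of angiogenesis inhibitors held 19 genes, of which 5 passed as higher and 3 as lower, against 5.36% and 5.99% of all genes. The other 11 did not pass, and the median log2 fold change was -0.09. THBS1, which encodes thrombospondin 1, gave 12.01, 12.31 and 12.11 in SY5Y-TR1 cells, against 9.27, 9.44 and 9.38 in SH-SY5Y cells, and was 6.88-fold higher through 5 of 7 probe sets (2.78 ± 0.09 on the log2 scale, SE). COL18A1, the precursor of endostatin, was 4.26-fold higher, and COL4A1, the precursor of arresten, 3.24-fold higher. VASH2, a vasohibin that, unlike its relative VASH1, is known to promote vessel growth although the list counts it, was at least 4.09-fold lower, SPRY1, a feedback inhibitor of receptor tyrosine kinases, 4.19-fold lower, and the metalloproteinase ADAMTS1 2.40-fold lower.

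**Figure D3:**
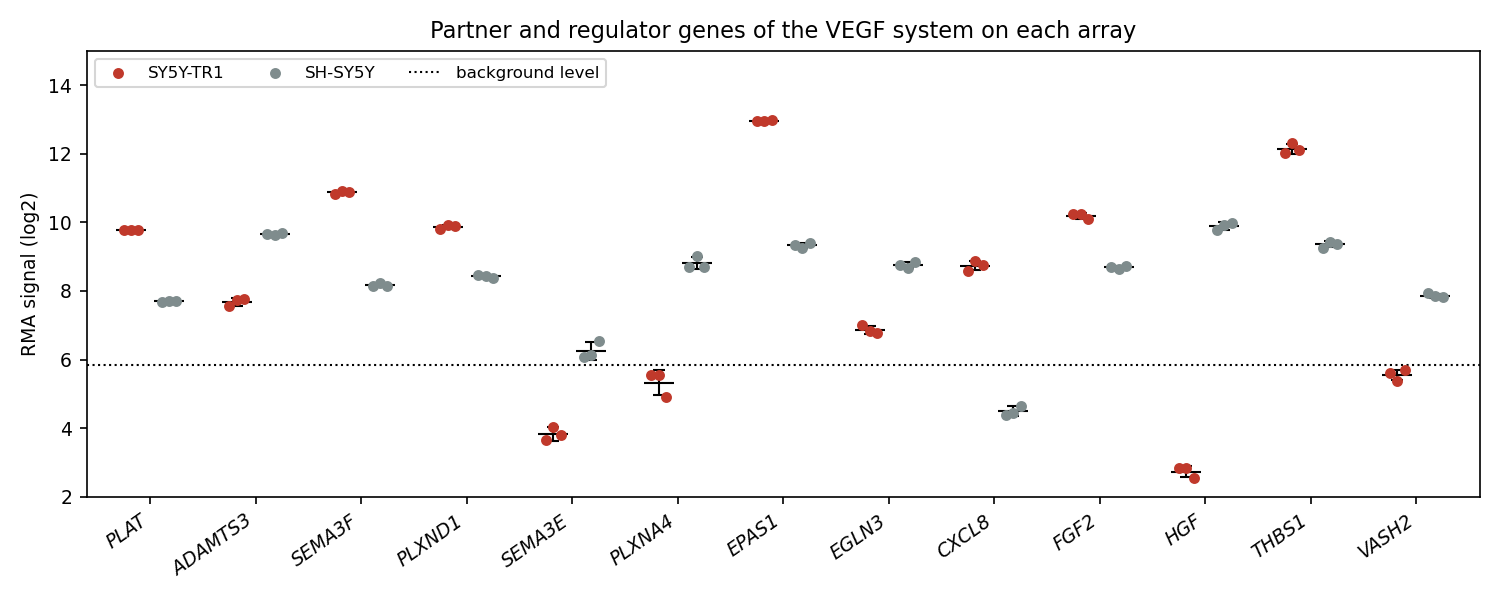
RMA signal (log2, y axis) of 13 genes of ligand processing, semaphorin signalling, hypoxia, other ligands and inhibitors on every array. Points are the 3 SY5Y-TR1 arrays (red) and the 3 SH-SY5Y arrays (grey), with means and SDs as bars, and a dotted line marks background (5.83). PLAT, SEMA3F, PLXND1, EPAS1, CXCL8, FGF2 and THBS1 are higher in SY5Y-TR1, and ADAMTS3, SEMA3E, PLXNA4, EGLN3, HGF and VASH2 lower.

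Because KDR, FLT1 and FLT4 are typical of vessel cells, markers of endothelium were measured in the same cultures. Of 15 endothelial markers, 10 lay under the background level on all 6 arrays. The means of 5 in SY5Y-TR1 cells and of 3 in SH-SY5Y cells were above it. Their median log2 fold change was 0.18, and their summed linear signal was 835 to 852 in SY5Y-TR1 cells and 573 to 597 in SH-SY5Y cells. Because levels of different genes cannot be set against each other, such sums, here and below, mostly follow the brightest probe sets. The sum here also includes the 10 markers under background. CDH5, which encodes VE-cadherin and defines endothelium, read 3.52 ± 0.11 in SY5Y-TR1 cells and 3.42 ± 0.11 in SH-SY5Y cells (SD, n = 3 each), and TIE1, VWF, ERG, ESAM and CLEC14A were also under the background level in both lines. ROBO4, named here after its value was seen, was the only marker called, at least 3.91-fold higher through 1 of 2 probe sets. Of all genes, 5.36% were called higher. With log2 means of 7.80 in SY5Y-TR1 cells and 5.19 in SH-SY5Y cells, ROBO4 made most of the gap between the summed signals. The brightest other markers, EGFL7 and CD34, differed by 0.30 and 0.18 on the log2 scale and did not pass. None was lower, against 5.99% of all genes (limma, with 1 lower at an unadjusted p under 0.05 with no fold limit, and 0 by the methods' t-test at the same limit). PECAM1, which encodes the junction protein CD31, had log2 means of 6.02 in SY5Y-TR1 cells and 5.92 in SH-SY5Y cells, just above the background level. The part of these markers in the differences of VEGFC, FLT1 and NRP2 was not tested.

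Markers of lymphatic endothelium, the cells on which VEGFC acts, did not include a gene called higher. Of 8 measured, 2 were lower, against 5.99% of all genes, and 6 did not pass. None was higher, against 5.36% of all genes (limma, with 1 higher at an unadjusted p under 0.05 with no fold limit, and 1 by the methods' t-test at the same limit). PROX1, the transcription factor of lymphatic fate that is also made in neuronal precursors, gave 4.73, 4.20 and 4.61 in SY5Y-TR1 cells, against 9.21, 9.45 and 9.44 in SH-SY5Y cells, and was at least 11.6-fold lower, with 3 of 4 probe sets called. RELN, the matrix glycoprotein reelin of neurons and lymphatic vessels, was 8.72-fold lower. Its SY5Y-TR1 arrays read 5.41, 6.23 and 5.97, around the background level, so that fold runs down to background. LYVE1, the hyaluronan receptor of lymphatic vessels, lay under the background level in both lines. The summed signal of the list was 275 to 286 in SY5Y-TR1 cells and 1297 to 1405 in SH-SY5Y cells. PROX1 and RELN made nearly all of that gap, and the median log2 fold change of the list was 0.02.

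**Figure D4:**
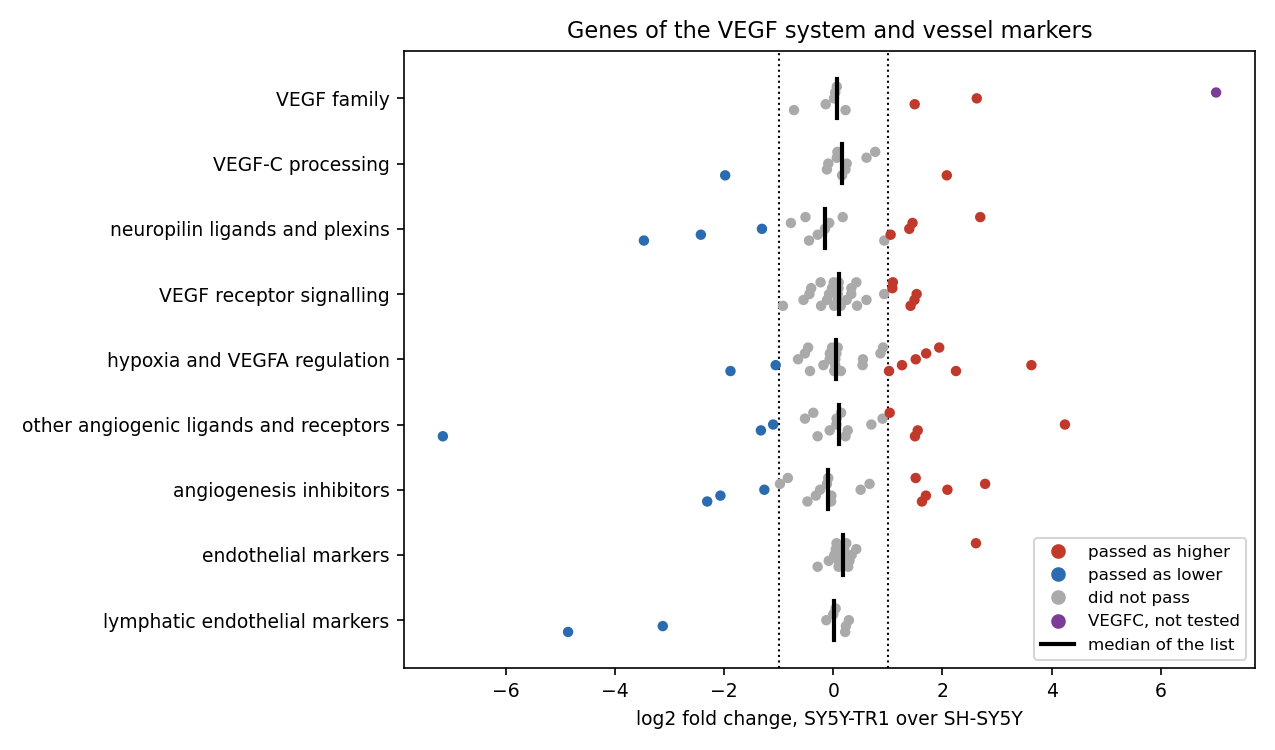
Difference in log2 signal (SY5Y-TR1 minus SH-SY5Y, x axis) of each measured gene of 9 lists. Points are genes, red for higher, blue for lower, grey for not passing and purple for VEGFC, which was not tested, black bars are list medians and dotted lines mark 2-fold. The medians run from -0.15 to 0.18, and single genes such as VEGFC, HGF and PROX1 stand far outside them.

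The 5 genes whose signals, centred on each gene's mean, were closest to those of VEGFC over the 6 arrays were CCDC85A, SLC25A43, SASH1, INHBA and HSPB3, with root mean square differences of 0.15, 0.19, 0.22, 0.26 and 0.30 on the log2 scale. With 2 lines, this likeness mostly says that the difference between the lines was of similar size. SASH1, a scaffold protein, read 10.83 ± 0.08 in SY5Y-TR1 cells and 3.94 ± 0.21 in SH-SY5Y cells (SD, n = 3 each), with all 3 of its probe sets higher. INHBA, a subunit of activin A, was the only one of the 5 that lay above the background level in SH-SY5Y cells.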

How the data were processed

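RNA of 3 SY5Y-TR1 and 3 SH-SY5Y samples was measured on Affymetrix U133 Plus 2.0 GeneChips. Deposited values are log2 signals per probe set that the authors made by RMA, with Affymetrix Expression Console named in the submitters' processing notes, versions not given in the sources used here. RMA subtracts background, makes the arrays' distributions equal and summarizes probes, so dim signals are compressed and fold changes understated.

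Of 54675 probe sets, 62 controls were left out. Of the rest, 41091 carried 1 gene symbol, 1801 several and 11721 none, and the brightest probe set over all 6 arrays represented each of 19775 genes. VEGFD, whose probe set carried several symbols, was not analysed here. Lines were compared with limma 3.58.1 in R 4.3.3 (lmFit and eBayes, Benjamini-Hochberg adjustment over all genes, or over all probe sets for probe set values). Standard errors (SE) and 95% intervals come from these fits. The fit was tested on simulated data. Precision is limited by 3 arrays in each line.

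Background was set from genes of unrelated tissues (46 listed, 40 measured), at the 90th percentile of their mean signals. Members and 14 lists were chosen with earlier results of these data known. Of each list, the 3 called genes with the largest increases and the 3 with the largest decreases were named, or where fewer than 2 were called the 2 brightest, and the 5 genes nearest VEGFC. Other genes given, such as TH, HIF1A, CCBE1, PLG, CDH5, TIE1, VWF, ERG, ESAM, CLEC14A, LYVE1, PECAM1 and ROBO4, were chosen after their values were seen. Alternatives were the probe set of a gene, scaling, dim values, the variance model, the replicate block, the methods' t-test (two-sided), thresholds and leaving out arrays.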

Additional observations from a re-analysis of the deposited data

How the results depend on the processing

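Of 147 values of the 9 genes under 17 alternative settings, 136 counted as the same, and 186 of 204 pathway list counts stayed within 1.5 times. For the 8 genes other than VEGFC, the same meant an unchanged direction and side of the threshold. For VEGFC it meant a shift smaller than the larger SD of its arrays within a line. The replicate block, the variance model, the t-test and the thresholds left the log2 fold changes unaltered by construction. Leaving out 1 array at a time gave 1030 to 1082 genes higher and 1172 to 1206 lower over all genes, log2 fold changes of 6.91 to 7.08 for VEGFC, 1.46 to 1.51 for FLT1, 2.56 to 2.70 for NRP2, -0.77 to -0.66 for VEGFA and 0.20 to 0.26 for VEGFB, and left 2 of the 8 genes other than VEGFC higher. The near-zero values of FLT4 and PGF changed sign, with ranges of -0.0458 to 0.0821 for FLT4 and -0.0565 to 0.0832 for PGF (-0.0565 without SY5Y-TR1 replicate 2). FLT4 was -0.0458 without SY5Y-TR1 replicate 1, -0.0058 without SH-SY5Y replicate 1 and -0.0351 without SH-SY5Y replicate 3. Centring on 25 housekeeping genes, which moved the median of all genes by -0.04, gave -0.0289 for FLT4 and -0.0074 for PGF. Raising low values to the background level gave -0.0013 for FLT4 and 4.61 for VEGFC, by construction. With the level at the 95th percentile of the background genes, an alternative chosen after seeing the data, the least fold of VEGFC was 16.9.

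The mean of all probe sets took FLT1 to 0.93, NRP2 to 1.65 and VEGFA to -0.28 on the log2 scale, leaving 1 of the 8 genes higher (NRP2), and left 3 hypoxia genes, 1 neuropilin partner and 2 receptor signalling genes higher and 1 receptor signalling gene lower. Without probe sets whose names mark shared sequence, in which VEGFA, VEGFB and PGF had none left, 4 hypoxia genes were higher and 1 was lower, and 2 other angiogenic genes, 3 receptor signalling genes and 0 VEGF-C processing genes were higher. The cause of these changes was not tested. Without the fold limit, which by construction adds small differences, 5634 genes were higher and 4813 lower, and VEGFA (-0.72) and VEGFB (0.22) passed, so that 1 of the 8 genes was lower. The lists then had 5 higher for VEGF-C processing, 7 lower for neuropilin partners, 12 higher and 6 lower for receptor signalling, 11 higher and 7 lower for hypoxia, 7 higher and 6 lower for other angiogenic genes and 8 lower for inhibitors. The methods' t-test called 10680 genes at p under 0.05 and 9637 after Benjamini-Hochberg adjustment, both with no fold limit. Arrays of the same number did not deviate together (correlations of 0.0002, 0.0205 and 0.0299), and with the replicate number as a block the counts were 1060 higher and 1185 lower, the same as without it. Signals under the background level, KDR and FLT4 in both lines and VEGFC in SH-SY5Y, limit what these arrays can show, and the filter on dim probes left KDR and FLT4 out.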

Other observations

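Of 10 pericyte and smooth muscle markers, 1 was higher and 2 lower, against 5.36% and 5.99% of all genes. The other 7 did not pass, and the median log2 fold change was 0.07. Their summed linear signal was 13272 to 13515 in SY5Y-TR1 cells and 23461 to 24082 in SH-SY5Y cells. RGS5 alone made most of that gap, with log2 means of 12.84 in SY5Y-TR1 cells and 14.14 in SH-SY5Y cells. PDGFRB, the receptor by which pericytes are recruited, was 2.35-fold higher, RGS5, a regulator of G protein signalling in pericytes, 2.47-fold lower through 4 of 6 probe sets, and the potassium channel KCNJ8 at least 7.76-fold lower. Of 9 measured blood cell markers, 0 were higher and 0 lower, against 5.36% and 5.99% of all genes (limma, with 3 higher and 0 lower at an unadjusted p under 0.05 with no fold limit, and 1 higher and 1 lower by the methods' t-test at the same limit). CSF1R and HBB, the brightest of that list, had log2 means of 6.48 and 6.21 in SY5Y-TR1 cells and of 6.06 and 6.11 in SH-SY5Y cells. The part of these markers in the differences of VEGFC, FLT1 and NRP2 was not tested.

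Of the 25 measured housekeeping genes, 0 were called, against 11.4% of all genes in either direction, with a median log2 fold change of 0.08 (limma, with 11 higher and 5 lower at an unadjusted p under 0.05 with no fold limit, and 15 higher and 5 lower by the methods' t-test at the same limit).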
